A study of Mus musculus with 4 samples.

Results

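The collagen-modifying genes described here are the alpha subunits of collagen prolyl 4-hydroxylase (P4ha1, P4ha2 and P4ha3), the lysyl hydroxylases (Plod1, Plod2 and Plod3), the collagen chaperone Serpinh1, and 3 lysyl oxidases (Lox, Loxl1 and Loxl2). They were chosen by name from the collagen biosynthesis pathway, with earlier results of these data known. All 10 genes are on the array, with 14 probes among 41174. Of these, 13 probes entered the comparison because their signal stood well above background in both lines of 1 genotype or of both, 12 of them without saturation, for 9 genes. The level of each gene was compared between mouse embryonic fibroblasts (MEFs) that carry or lack Ip6k1, and then set beside the levels of the collagens themselves, in order to see whether collagen processing followed collagen expression in each line.

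RNA of 2 MEF lines with the genotype Ip6k1+/+ and of 2 with Ip6k1-/- was hybridised to single-colour Agilent arrays, 1 array for each line and all of them on 1 slide. The lines were derived from E14 embryos of heterozygous parents (1 dam) and were all immortalised with the SV40 large T antigen, so that the controls are also transformed. The labels name no treatment, and cells were harvested by trypsin after thawing and passaging. Each line comes from 1 embryo, so the replicates differ in embryo and in their own immortalisation as well as in genotype, and p-values measure the spread between these 4 lines. Values are log2 signal relative to the 75th percentile of the array, so that 0 marks that percentile, and every difference is Ip6k1-/- minus Ip6k1+/+ on the log2 scale.

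Collagen chains are modified while they are still in the endoplasmic reticulum. Prolyl 4-hydroxylases hydroxylate proline residues, which makes the triple helix stable at body temperature, and lysyl hydroxylases hydroxylate lysine residues, which serve as sites for sugar attachment and for crosslinks. Serpinh1 (HSP47) binds the folded triple helix and escorts it towards the Golgi. Once collagen has left the cell and its propeptides have been cleaved, lysyl oxidases oxidise lysine and hydroxylysine residues, and the aldehydes formed crosslink the fibrils. Fibroblasts are the main producers of fibrillar collagen in connective tissue.

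Because every value rests on hybridisation to a 60-base probe, probes are shown where they cross a splice junction. The Loxl1 probe and the dimmer Loxl2 probe are shown as well, but not Loxl2 A_52_P480351, the brighter probe that represents the gene. Probe positions are given in mm9, the build of the array files, and letters are in lower case because no motif is marked. The P4ha3 probe (chr7:107434225-107441133, + strand), whose mean difference rests on 1 Ip6k1-/- line at background, the Plod1 probe (chr4:147290037-147291457, - strand) and a Plod3 probe (chr5:137466696-137466864, + strand) are placed over an interval longer than the probe, so that each joins exonic sequence across an intron. The Loxl1 probe (chr9:58138570-58138629, - strand) and the Loxl2 probe A_51_P275949 (chr14:70092141-70092200, + strand) each lie in 1 uninterrupted stretch.
P4ha3 A_52_P220912: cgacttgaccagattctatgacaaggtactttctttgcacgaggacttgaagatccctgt
Plod1 A_51_P320304: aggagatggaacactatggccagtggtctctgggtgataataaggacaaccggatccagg
Plod3 A_52_P207278: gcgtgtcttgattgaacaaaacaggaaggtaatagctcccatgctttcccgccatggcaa
Loxl1 A_51_P304239: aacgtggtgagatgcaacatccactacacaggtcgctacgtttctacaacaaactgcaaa
Loxl2 A_51_P275949: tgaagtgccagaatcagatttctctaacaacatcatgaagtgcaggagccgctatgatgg

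The arrays were of similar quality, with 52.0% to 55.5% of probes well above background, and with a 75th percentile of signal between 610 and 747. The labels held for the targeted gene: Ip6k1 probe A_51_P213766 was at 0.35 and 0.39 in the Ip6k1+/+ lines and at background in both Ip6k1-/- lines (-6.88 and -6.80, limma adjusted p = 0.0355), while probe A_51_P103718 was at 2.46 and 2.61 against -1.98 and -1.23, still above background (adjusted p = 0.367). The fibroblast markers fixed for the check were well above background for 11 of 11 genes in 3 lines and for 10 in Ip6k1-/- replicate 2, where Lum was missing. None of the 4 skeletal muscle markers was well above background in any line, and 1 of 5 endothelial markers was in each. Between 1 and 4 of 6 epithelial markers (never Cdh1 or Krt14), 1 or 2 of 6 blood markers (never Ptprc) and 1 to 4 of 4 neural markers were. Of the cartilage and bone markers, 5 of 7 were well above background in every line, Sp7 and Alpl in none, and the summed signal of the list, in units of the 75th percentile, was 10.1 and 4.36 in Ip6k1+/+ MEFs and 5.29 and 2.19 in Ip6k1-/- MEFs.

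No collagen-modifying gene passed the limma test between the genotypes. The adjusted p was at least 0.993 for all 13 probes, and 1 of the 12 unsaturated probes had an unadjusted p below 0.05, against 721 of all 21572 probes tested (3.34%). Across the array, limma called 0.0139% of probes lower in Ip6k1-/- MEFs and 0% higher at an adjusted p of 0.05, and the lower ones were 3 probes. Among these 3 were probes A_51_P213766 and A_52_P413035 of the deleted gene Ip6k1 itself (limma adjusted p = 0.0355 for each). The direction of the members was nonetheless mostly the same: 11 of the 12 unsaturated probes had a lower mean in Ip6k1-/- MEFs. By gene, on the brightest tested probe, 8 of 9 were lower, against 6423 of all 14102 unsaturated genes tested. Because the members were chosen with earlier results of these data known, these counts are a description and not a test. Without Ip6k1+/+ replicate 1, or without Ip6k1-/- replicate 2, P4ha2, Lox and both Plod3 probes had a higher mean instead. In 4 of the 12 the Ip6k1-/- lines were both lower than either control, and in none were both higher, beside 12.6% and 18.8% of all probes. One of these, P4ha3, passed the filter through the controls alone. Of the 11 probes well above background on every array, 10 had a lower mean, and 3 probes of 2 genes, P4ha1 and Plod2, kept the genotypes apart. In bulk RNA, fewer cells that express a gene and less transcript per cell cannot be told apart. None of the member probes passed a cutoff of a 2-fold mean difference with each Ip6k1-/- line at least 0.9 away from the Ip6k1+/+ mean on the log2 scale, which 1.87% of all probes passed downwards and 1.06% upwards. On the mean alone, P4ha3 and 1 Loxl2 probe reached 2-fold.

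**Figure D1:**
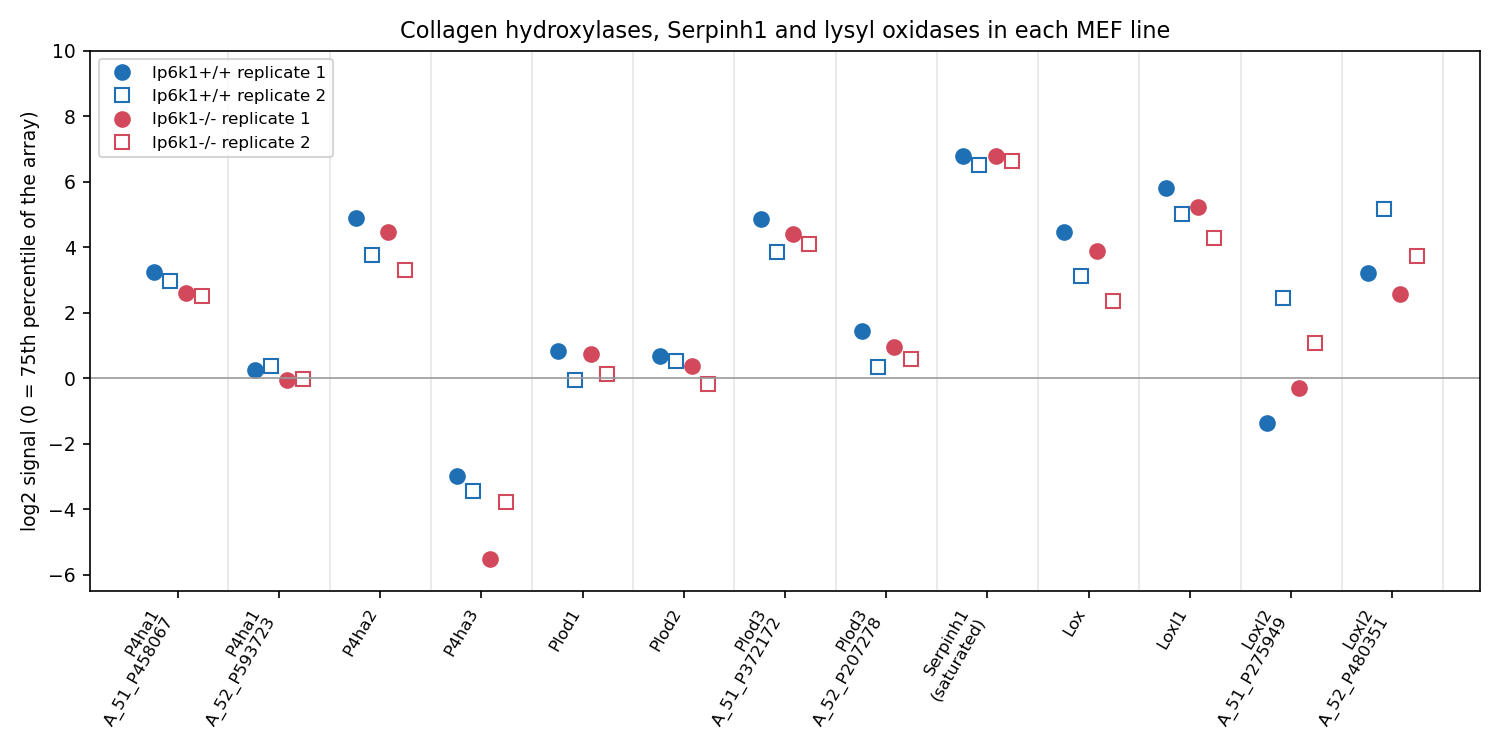
Log2 signal relative to the 75th percentile of the array (vertical axis) for the 13 member probes that entered the comparison, 1 point per MEF line, with Ip6k1+/+ in blue, Ip6k1-/- in red, replicate 1 filled and replicate 2 open. Both red points lie below both blue points for P4ha1 (2 probes), P4ha3 and Plod2, the P4ha3 point at -5.51 is not well above background, Serpinh1 is saturated, and levels of different probes are not comparable.

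Among the prolyl 4-hydroxylases, P4ha1, the catalytic subunit found in most cells, was the gene whose genotypes did not overlap on either of its probes. Its probe A_51_P458067 was at 3.24 and 2.98 in Ip6k1+/+ MEFs and at 2.60 and 2.53 in Ip6k1-/- MEFs. Both Ip6k1-/- lines were below both controls, by a mean of -0.55 (standard error 0.20, 95% interval -1.07 to -0.03), that is 1.46-fold lower, and this was the probe with an unadjusted limma p below 0.05 (0.042, adjusted p = 0.993). The other P4ha1 probe, A_52_P593723, was at 0.25 and 0.36 in Ip6k1+/+ and at -0.06 and -0.03 in Ip6k1-/- MEFs. Again the genotypes did not overlap, and the difference was -0.35 (standard error 0.23). Leaving out any 1 of the 4 lines kept both probes lower in Ip6k1-/- MEFs, between -0.67 and -0.42 for the brighter and between -0.41 and -0.29 for the dimmer.

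P4ha2, a second catalytic subunit, which is prominent in chondrocytes, varied more between lines of the same genotype than between genotypes. Its probe A_52_P663413 was at 4.90 and 3.76 in Ip6k1+/+ MEFs and at 4.48 and 3.32 in Ip6k1-/- MEFs. Replicate 1 of each genotype was above replicate 2 of both, the genotypes overlapped, and the difference of -0.43 (standard error 0.55) turned to 0.14 without Ip6k1+/+ replicate 1 and to 0.15 without Ip6k1-/- replicate 2. The other P4ha2 probe, A_52_P617707, stayed at background on all 4 arrays and was not tested. P4ha3, the third catalytic subunit, was dim in all lines, at -2.995 and -3.45 in Ip6k1+/+ MEFs and at -5.51 and -3.76 in Ip6k1-/- MEFs. Its mean difference was -1.42 (standard error 0.67), but Ip6k1-/- replicate 1 was not well above background, and with that line raised to the dimmest signal of its array that counted as well above background, the difference was -1.04. Without that line it was -0.54, and without Ip6k1-/- replicate 2 it was -2.29. The probe entered the comparison through the Ip6k1+/+ lines.

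The promoters of P4ha1 and P4ha2 are shown because prolyl 4-hydroxylase genes are textbook targets of hypoxia-inducible factor, whose core element can hold the letters ACGTG. They are the RefSeq windows from 250 bases before to 50 bases after the gene start in GRCm38.p6, with each ACGTG on either strand (CACGT on the printed one, overlapping matches counted once) in capitals.
P4ha1 chr10:59323046-59323345, + strand: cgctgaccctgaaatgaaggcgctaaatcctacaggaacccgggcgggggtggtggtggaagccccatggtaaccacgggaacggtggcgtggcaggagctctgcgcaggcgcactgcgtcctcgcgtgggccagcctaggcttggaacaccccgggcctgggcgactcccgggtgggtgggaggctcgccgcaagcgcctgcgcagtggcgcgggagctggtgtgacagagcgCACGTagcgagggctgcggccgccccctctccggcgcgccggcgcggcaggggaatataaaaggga
P4ha2 chr11:54100674-54100973, + strand: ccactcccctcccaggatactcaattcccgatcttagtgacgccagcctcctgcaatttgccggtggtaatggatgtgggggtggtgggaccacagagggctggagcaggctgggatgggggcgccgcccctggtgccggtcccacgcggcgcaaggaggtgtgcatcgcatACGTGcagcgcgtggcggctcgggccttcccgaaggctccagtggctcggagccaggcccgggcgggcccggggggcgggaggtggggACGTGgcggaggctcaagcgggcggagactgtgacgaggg
P4ha1 holds 1 match, 16 bases before the start, and P4ha2 holds 2. The promoter table held 6 of the 10 genes, and 4 of these 6 (P4ha1, P4ha2, Plod3 and Serpinh1) had a match, against 19.6% of all 32851 promoters. Only ACGTG was searched, so other forms of the element were not counted. A match describes the letters of the window, not binding.

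The transcripts that hypoxia-inducible factor raises were given beside them by a list of 15 genes, all of which were tested. The median difference of the list was -0.08 against 0.04 over all 14334 genes tested, with 9 of 15 genes lower, and none passed the limma test. Both Ip6k1-/- lines were below the controls in 3 genes, Ddit4 (-0.80, standard error 0.24), Car9 (-0.60, standard error 0.35) and Ero1l (-0.22, standard error 0.22), and above them in Ldha (0.36, standard error 0.25). Of all 14334 genes tested, 1895 lay below the controls in this way and 2597 above, so such genes are common on the array. The glucose transporter Slc2a1 (-0.02, standard error 0.28) and the hexokinase Hk2 (0.09, standard error 0.21) had overlapping lines, and Adm, a vasodilator peptide, had the largest difference of the list, -1.54, with a standard error of 1.26. Egln3, an oxygen sensor that is itself raised by hypoxia, was at -4.09 and -0.81 in Ip6k1+/+ MEFs and at -4.17 and 0.08 in Ip6k1-/- MEFs, so that its variation was between replicates. A list of 6 other 2-oxoglutarate dioxygenases, which share the cofactors of the collagen hydroxylases but act on other substrates, had a median difference of 0.30 with 2 of 6 lower. P4htm, a transmembrane prolyl hydroxylase, was the 1 gene among them with both Ip6k1-/- lines below the controls (-0.78, standard error 0.39), and Egln1 the 1 with both above (0.43, standard error 0.26).

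Of the lysyl hydroxylases, Plod2, which hydroxylates the collagen telopeptides, was the only one with non-overlapping genotypes. It was at 0.67 and 0.52 in Ip6k1+/+ MEFs and at 0.38 and -0.16 in Ip6k1-/- MEFs. Both Ip6k1-/- lines were lower, Ip6k1-/- replicate 2 by the wider margin, and the mean difference was -0.49 (standard error 0.29, 95% interval -1.24 to 0.26, limma adjusted p = 0.993). Without Ip6k1-/- replicate 2 the difference was -0.22, and without Ip6k1-/- replicate 1 it was -0.76. It is measured by a single probe, so its splice forms cannot be told apart.

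Plod1, which acts on lysines of the triple helix, was at 0.82 and -0.04 in Ip6k1+/+ MEFs and at 0.74 and 0.13 in Ip6k1-/- MEFs. Its genotypes overlapped, and with a difference of 0.04 (standard error 0.41, 95% interval -1.02 to 1.11) it was the 1 unsaturated probe of the 12 with a higher mean in Ip6k1-/- MEFs. Plod3, which adds sugars to hydroxylysine besides hydroxylating lysine, was at 4.86 and 3.86 in Ip6k1+/+ MEFs and at 4.42 and 4.09 in Ip6k1-/- MEFs on probe A_51_P372172. The Ip6k1-/- lines lay between the controls, with a difference of -0.11 (standard error 0.38). The splice-spanning probe A_52_P207278 gave the same picture at 1.44, 0.34, 0.94 and 0.60 in the same order of lines, with a difference of -0.12 (standard error 0.43). Both intervals reach about 2-fold in either direction (-1.11 to 0.89 and -1.24 to 1.00), so differences up to that size could not be told from none with 4 lines.

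Serpinh1 was saturated on all 4 arrays, at 6.78 and 6.51 in Ip6k1+/+ MEFs and at 6.79 and 6.63 in Ip6k1-/- MEFs. These values follow the scanner ceiling, which lay at a median of 6.70, 6.41, 6.69 and 6.55 over the saturated probes of the same arrays, so no difference is given for the chaperone. It was as bright as the arrays could record in every line.

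The lysyl oxidases spread widely over the 4 lines. Lox, the founding member of the family, was at 4.45 and 3.11 in Ip6k1+/+ MEFs and at 3.89 and 2.37 in Ip6k1-/- MEFs. Ip6k1+/+ replicate 1 was highest and Ip6k1-/- replicate 2 lowest, the genotypes overlapped, and the difference was -0.65 (standard error 0.68). Without Ip6k1+/+ replicate 1 it was 0.02, and without Ip6k1-/- replicate 2 it was 0.11. Loxl1, which is known for its part in elastic fibre assembly, was at 5.81 and 5.02 in Ip6k1+/+ MEFs and at 5.23 and 4.27 in Ip6k1-/- MEFs. The lines fell in the same order as for Lox, with overlap, and the difference of -0.66 (standard error 0.43) stayed below 0 without any 1 line, between -1.14 and -0.19.

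Loxl2, which also crosslinks the type IV collagen of basement membranes, ran against Lox and Loxl1 across the lines. Its brighter probe, A_52_P480351, was at 3.22 and 5.16 in Ip6k1+/+ MEFs and at 2.58 and 3.74 in Ip6k1-/- MEFs. Ip6k1+/+ replicate 2 was highest and Ip6k1-/- replicate 1 lowest, and the difference was -1.03 (standard error 0.75). It rested on single lines, at -0.062 without Ip6k1+/+ replicate 2, -0.45 without Ip6k1-/- replicate 1, -1.61 without Ip6k1-/- replicate 2 and -1.998 without Ip6k1+/+ replicate 1. The probe A_51_P275949 was at -1.35 and 2.44 in Ip6k1+/+ MEFs and at -0.28 and 1.06 in Ip6k1-/- MEFs. Here both Ip6k1-/- lines lay between the controls, with a gap of -3.79 between the controls (replicate 1 minus replicate 2) and a difference of -0.15 (standard error 1.33) between genotypes. The probes therefore shared the rank of replicate 2 over replicate 1 but not the size of the genotype difference. The 2 further lysyl oxidases on the array differed by 0.66 (Loxl3, standard error 0.41) and 0.08 (Loxl4, standard error 0.44), both with overlapping lines.

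**Figure D2:**
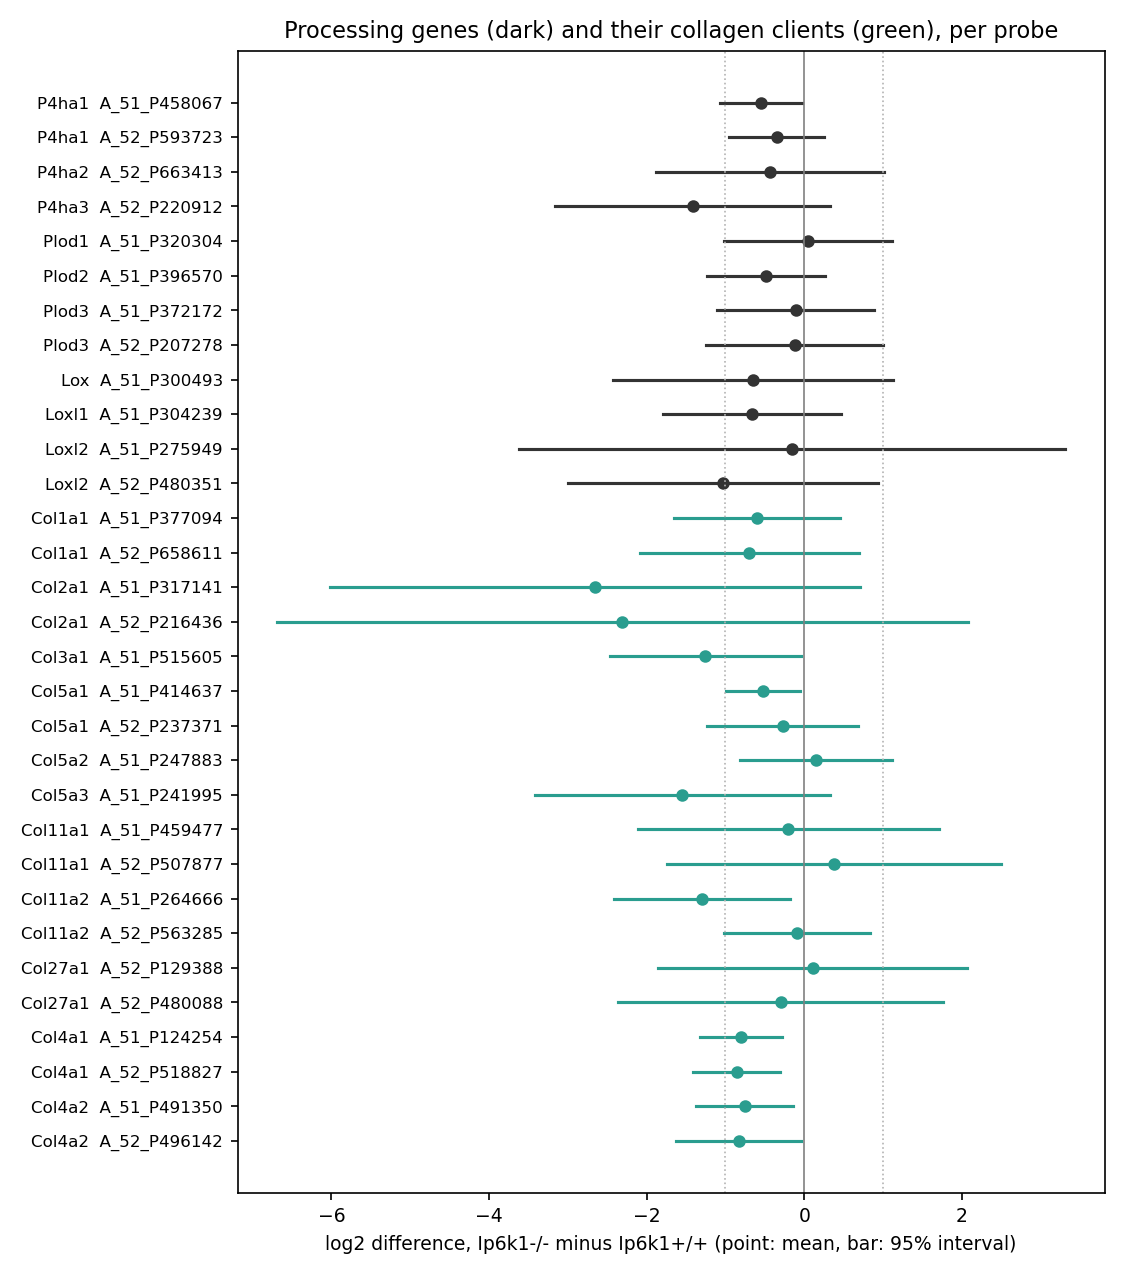
Mean log2 difference, Ip6k1-/- minus Ip6k1+/+ (horizontal axis), for the 12 unsaturated member probes (dark) and for unsaturated probes of fibrillar collagens, Col4a1 and Col4a2 well above background on all 4 arrays (green), with 95% limma intervals from 2 lines a genotype and dotted lines at 2-fold. Of the members, 11 points lie below 0 and 1 interval, that of P4ha1 A_51_P458067, leaves out 0. All 4 intervals of Col4a1 and Col4a2 leave out 0. Among fibrillar collagens, those of Col3a1 A_51_P515605, Col5a1 A_51_P414637 and Col11a2 A_51_P264666 do, and the others shown include it. The intervals are not adjusted for the number of probes.

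For most members, the lines of 1 genotype were further apart than the genotypes. In 10 of the 12 unsaturated probes, at least 1 of the within-genotype gaps was larger than the genotype difference, and in 8 both gaps were. A gap between single lines spreads more than a difference of means over lines, and the share over all probes was not counted. Medians were taken over the 9 unsaturated member genes, with the brightest tested probe for each. The median absolute gap was 0.86 between the Ip6k1+/+ lines and 0.96 between the Ip6k1-/- lines. Over all 14102 unsaturated genes tested it was 0.36 and 0.31. The median absolute difference between genotypes was 0.55 for these members and 0.23 for all unsaturated genes. In both sets the median gaps were larger than the median genotype difference, so this is not particular to the members. Gaps were narrow for P4ha1, for Plod2 between the controls (0.15) and for Plod3 between the Ip6k1-/- lines (0.33 and 0.35 on its probes). The P4ha3 controls were 0.45 apart. Otherwise the unsaturated members spread widely over the 4 lines. Mostly Ip6k1+/+ replicate 1 was at the top and Ip6k1-/- replicate 2 at or near the bottom. The summed signal of the cartilage and bone markers was highest and lowest in the same lines (Col2a1 belongs to that list and to the collagens), and their part in the result was not tested.

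The collagens that these enzymes act on had a similar median difference. Over the 10 member genes the median difference was -0.52, or -0.55 over the 9 without saturation, of which 8 were lower. Of 41 collagen genes on the array, 29 were tested, with a median difference of -0.52, or -0.60 over the 26 without saturation, of which 21 were lower. The same median was 0.04 over all genes. No collagen passed the limma test, and 3 of the 29 (Col2a1, Col6a1 and Col6a2) passed the 2-fold cutoff downwards, beside none of the members. Col2a1 had overlapping lines, at 2.15 and -1.10 in Ip6k1+/+ and at -1.07 and -3.18 in Ip6k1-/- MEFs (-2.65, standard error 1.29). The other Col6a2 probe, with a difference of -0.98, did not pass the cutoff. Both Ip6k1-/- lines lay below both controls in 10 of the 29 collagens and above them in 1. Of all 14334 genes tested, 1895 lay below and 2597 above in this way, and 299 passed the 2-fold cutoff downwards.

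Several collagens kept the genotypes apart. The network-forming Col4a1 was at 3.01 and 3.002 in Ip6k1+/+ MEFs and at 2.08 and 2.32 in Ip6k1-/- MEFs, a difference of -0.81 (standard error 0.20), and its partner Col4a2 differed by -0.76 (standard error 0.24). Col6a1, a chain of the beaded filaments around cells, was at 3.73 and 4.22 in Ip6k1+/+ MEFs and at 2.80 and 2.54 in Ip6k1-/- MEFs (-1.30, standard error 0.25), and Col6a2 differed by -1.49 (standard error 0.30). In all 4 genes the Ip6k1-/- lines were below the controls, and the limma adjusted p was 0.993.

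The fibrillar collagens, the main clients of the lysyl oxidases, were more uneven. Col3a1 was at 6.24 and 5.90 in Ip6k1+/+ MEFs and at 5.46 and 4.17 in Ip6k1-/- MEFs, a difference of -1.25 (standard error 0.46) without overlap. Col1a1, a chain of the most abundant fibrillar collagen, was saturated on its brightest probe, and the other probes differed by -0.60 (standard error 0.40) and -0.70 (standard error 0.53), with overlapping lines. Col5a1 differed by -0.52 (standard error 0.18) and Col5a3 by -1.55 (standard error 0.72), both without overlap, although the other Col5a1 probe overlapped (-0.28, standard error 0.37), while Col5a2 had a higher mean, by 0.15 (standard error 0.37). Over the 10 fibrillar collagens tested the median was -0.41, and over the 8 without saturation it was -0.89, since Col1a1 and Col1a2 sit at the scanner ceiling on the probes used.

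**Figure D3:**
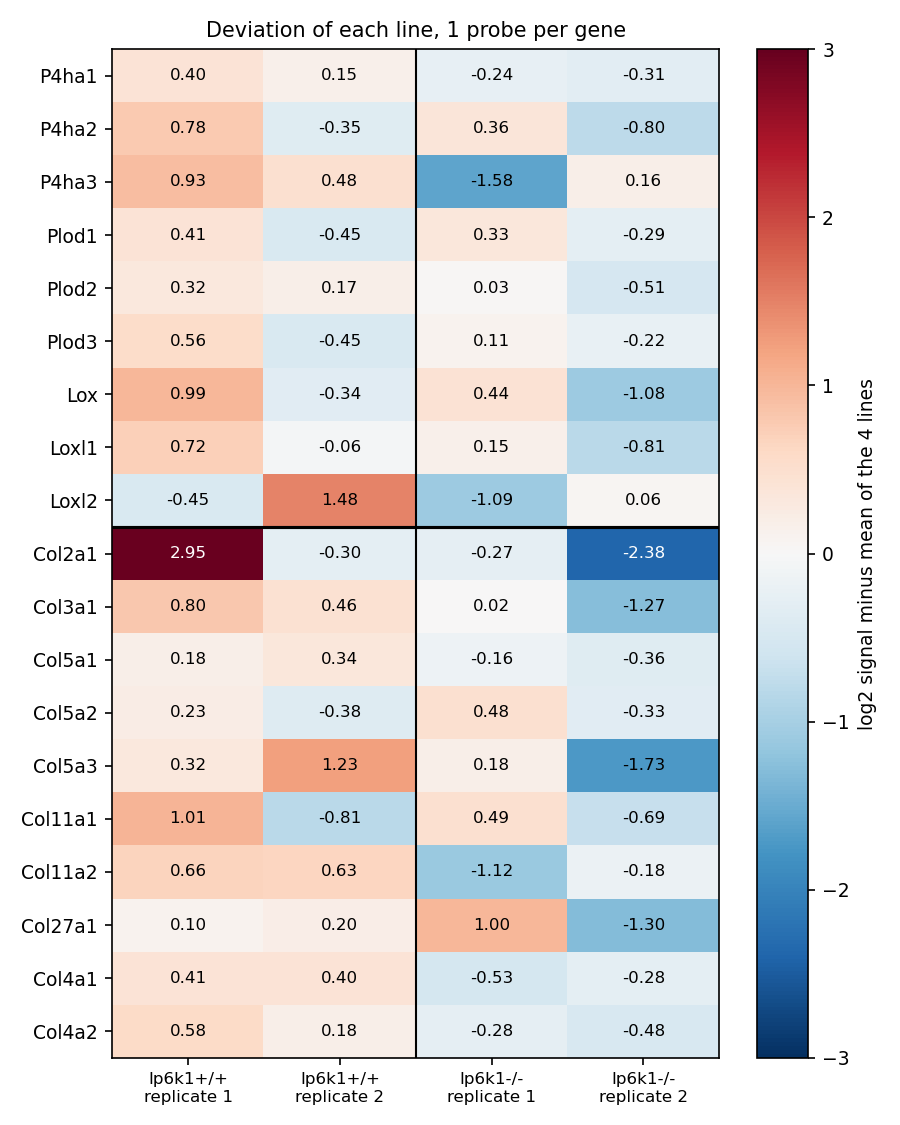
Log2 signal minus the mean of the 4 lines for each unsaturated member gene (upper block), fibrillar collagen, Col4a1 and Col4a2 (lower block), with 1 probe per gene and 1 column per MEF line, red above and blue below the mean. Ip6k1-/- replicate 2 is below the mean for all 10 collagens shown and for 7 of 9 members, and Ip6k1+/+ replicate 2 is below the mean for 5 of 9 members and above it for 7 of 10 collagens.

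Line by line, collagen processing followed collagen expression only in part. Each gene was expressed relative to its own mean over the 4 lines, and the median over genes was taken in each line, with saturated genes left out. For the members the medians were 0.56 and -0.06 in Ip6k1+/+ MEFs and 0.11 and -0.31 in Ip6k1-/- MEFs. For the collagens they were 0.41 and 0.19 in Ip6k1+/+ MEFs and -0.20 and -0.39 in Ip6k1-/- MEFs. Both groups were highest in Ip6k1+/+ replicate 1 and lowest in Ip6k1-/- replicate 2. In the lines between, however, the collagens kept Ip6k1+/+ replicate 2 above Ip6k1-/- replicate 1, whereas the members had them in the opposite order, by a gap smaller than the within-genotype SD of the median over all 10 member genes (0.36, pooled over both genotypes). The other genes of procollagen modification and secretion shared the members' order, at -0.060 and -0.004. The fibrillar collagens had the order of the collagens, at 0.27 and 0.10. They took the members' order only with the saturated genes, which sit at the scanner ceiling, kept in, at 0.01 and 0.11.

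The member median minus the collagen median was 0.15 and -0.25 in Ip6k1+/+ MEFs and 0.31 and 0.08 in Ip6k1-/- MEFs. Relative to all collagens, the processing genes were lowest in Ip6k1+/+ replicate 2 and highest in Ip6k1-/- replicate 1. The within-genotype SD of this quantity, pooled over both genotypes and with saturated genes kept in, was 0.20. Against the fibrillar collagens alone, the same quantity was 0.06 and -0.33 in Ip6k1+/+ and 0.01 and 0.67 in Ip6k1-/- MEFs, where the fibrillar median was -0.98 in Ip6k1-/- replicate 2 while the member median was -0.31. With 4 lines, no correlation across lines was computed. Between genotypes, the medians of members and collagens differed by 0.004 in all, but without Ip6k1+/+ replicate 1 the member median was -0.13 and without Ip6k1-/- replicate 2 it was -0.064, while the collagen median was -0.50 and -0.49.

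**Figure D4:**
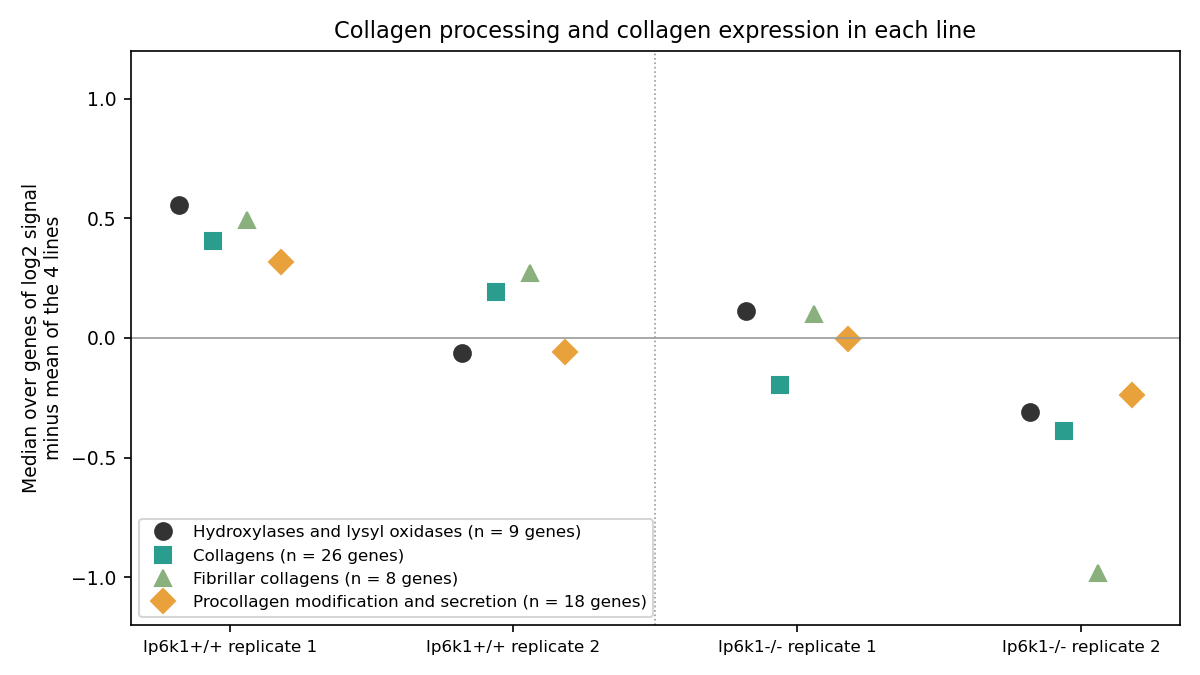
Median over genes of the log2 signal minus the mean of the 4 lines (vertical axis) in each MEF line, for unsaturated members (9 genes), collagens (26), fibrillar collagens (8) and other genes of procollagen modification and secretion (18). The collagen squares are lower in both Ip6k1-/- lines than in either Ip6k1+/+ line, whereas the member circle of Ip6k1+/+ replicate 2 (-0.06) is below that of Ip6k1-/- replicate 1 (0.11).

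The other genes that modify, fold and export procollagen had smaller differences in the same direction. Of 20 such genes on the array 19 were tested, with a median difference of -0.26 and with 16 lower. Both Ip6k1-/- lines were below the controls in 9 and above them in 2. Of all 14334 genes tested, 6455 were lower, 1895 had both Ip6k1-/- lines below the controls and 2597 had both above. Leprel2, a prolyl 3-hydroxylase, was the 1 gene past the 2-fold cutoff, at 3.59 and 2.85 in Ip6k1+/+ MEFs and at 2.27 and 2.06 in Ip6k1-/- MEFs (-1.06, standard error 0.31, limma adjusted p = 0.993). P4hb, the disulfide isomerase that forms the beta subunit of prolyl 4-hydroxylase, differed by -0.19 (standard error 0.26) with overlapping lines. Tmem38b, an ion channel of the endoplasmic reticulum membrane, had the largest difference in the other direction, 0.94 (standard error 0.43). The gaps between lines were narrower here than for the members, with median absolute gaps of 0.42 between the Ip6k1+/+ and 0.23 between the Ip6k1-/- lines.

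Propeptide cleavage, the step between secretion and crosslinking, held wide differences in both directions. Of 9 genes 7 were tested, with a median of 0.05, and 1 passed the 2-fold cutoff in each direction. Adamts2, the amino-propeptidase of procollagen, was at 2.72 and 1.60 in Ip6k1+/+ MEFs and at 0.23 and -1.49 in Ip6k1-/- MEFs (-2.79, standard error 0.70). Its other 3 probes were well above background in Ip6k1+/+ MEFs alone. Tll1, a carboxy-propeptidase of the Bmp1 family, was at -2.56 and -1.50 in Ip6k1+/+ MEFs and at -0.05 and -0.58 in Ip6k1-/- MEFs (1.72, standard error 0.47), and Bmp1 itself differed by -0.38 (standard error 0.49). The adjusted limma p was 0.993 for the probes used of all 3 genes.

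General chaperones of the endoplasmic reticulum and targets of TGF-beta, which raises collagen and lysyl oxidase expression in fibroblasts, had medians at or above 0. Of the 10 general chaperones and folding enzymes, 8 had a higher mean in Ip6k1-/- MEFs, with a median of 0.16. The 9 TGF-beta targets had a median of 0.05, or 0.01 over the 6 without saturation, with 4 of 9 lower. Tgfbi, a secreted matrix protein, was at 4.64 and 4.30 in Ip6k1+/+ MEFs and at 3.85 and 0.35 in Ip6k1-/- MEFs (-2.37, standard error 1.15). No gene of either list passed the limma test.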

How the data were processed

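Gene expression was measured in 4 MEF lines on single-colour Agilent whole-genome arrays. The authors deposited, for each array, spot intensity on a linear scale as extracted and background-corrected by Agilent Feature Extraction 10.5.1.1, with flags for detection and saturation, and log2 values that GeneSpring had shifted by the 75th percentile. Per the file headers, the build is mm9.

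The processed signal was put on the log2 scale and the 75th percentile over all spots except controls was taken off, array by array. Outlier spots were dropped (96 to 133 an array), saturated ones stayed in, and spots of 1 probe were averaged. The 21572 of 41174 probes with a signal well above background in both lines of 1 genotype or of both were tested. The test was limma 3.58.1 (lmFit, then eBayes with trend, R 4.3.3), with p-values adjusted by Benjamini-Hochberg across those probes, and it was tested on simulated data. A gene is represented by its tested probe with the highest mean. All members were named, and of other lists those past the 2-fold cutoff, those with the largest difference and those described for their role, the last chosen after their values were seen. Members, lists and markers were chosen with earlier results of these data known. Samples were grouped by the genotype in the labels. Alternatives were normexp (offset of 16), normalization by quantiles or by the median, the deposited log2 values, filters and floors on dim probes, saturated spots left out, other fold rules, no variance trend, a replicate block, and each array left out. The number of arrays limits the precision. Lox sequences are not reported here.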

Additional observations from a re-analysis of the deposited data

How the results depend on the processing

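No member probe reached an adjusted limma p of 0.05 under any alternative run, the lowest being 0.451. Of 108 differences of the 12 unsaturated probes under the 9 alternatives that could move them, 94 kept their direction and 14 turned. The count past the 2-fold cutoff rose from 0 to 1 with normexp background correction, to 2 on the mean alone, and to between 1 and 3 without 1 line. Normexp also moved the collagen median to -0.94, so that members minus collagens came to 0.59, and turned Plod3 A_51_P372172 to 0.15 and Loxl2 A_51_P275949 to 0.033. Over all probes it put 2424 past the cutoff downwards against 404. Without the 5 spots that lay below their local background, an alternative added after seeing the data, normexp gave 266, a member median of -0.52 and a collagen median of -0.38.

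Without 1 line, the member median ran from -0.64 to -0.064, the collagen median from -0.81 to -0.49, the fibrillar collagen median from -0.81 to -0.14, and the member minus the collagen median from 0.12 to 0.42. Directions that turned ran from -1.01 to 0.15 for P4ha2 A_52_P663413, from -0.39 to 0.47 for Plod1, from -0.61 to 0.39 and from -0.67 to 0.43 for the Plod3 probes, from -1.41 to 0.11 for Lox, and from -2.05 to 1.74 for Loxl2 A_51_P275949. The other probes stayed below 0, but with wide ranges for P4ha3 (-2.29 to -0.54), Plod2 (-0.76 to -0.22) and Loxl2 A_52_P480351 (-1.998 to -0.062). P4ha3 was at -0.72 with normexp without the 5 spots. The cause of these moves was not tested.

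The labels number the lines but do not pair them. With the replicate block, limma called 0 member probes, as without it, and the replicate 1 minus replicate 2 differences correlated between genotypes over all probes at 0.48. With 2 lines a genotype, only large differences could pass the test.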
